A study of Rattus norvegicus with 6 samples.

Results

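The genes described here are 10 markers of white and brown fat, measured in rat kidney. They are Cidea, Cidec, Adrb3, Ucp1, Plin1, Plin4, Adipoq, Fabp4, Lpl and Lipe. They were taken from a named list, which was chosen with earlier results of these data known. Their probes were found by matching the RefSeq accessions on the array to current rat gene symbols. Of the 10 genes, 8 had at least 1 matched probe, 10 probes in all, among 30367 probes and 15168 named genes on the array. Plin1 and Plin4, which encode coat proteins of lipid droplets, had no probe matched in this way and were not analysed here. Ucp1 was measured but too dim to test, so 7 genes were tested.

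There were 3 kidney samples of rats given Bailing Capsule, a fermented Cordyceps preparation, and 3 of diabetic rats, all 21 weeks old. Total RNA was labelled with Cy3 and hybridised to 1-colour Agilent arrays, 1 array per sample. The labels state no dose, duration, sex, strain or way of inducing diabetes, and they do not say whether the rats given Bailing Capsule were also diabetic. Kidneys of untreated, non-diabetic rats were not analysed here, and nothing says whether perirenal fat was trimmed. The labels number the samples as replicates without saying that each is a separate animal, so the p-values cover only the spread between these samples, which may be technical.

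White fat cells store triglyceride in a single large lipid droplet, while brown fat cells hold many small droplets and burn fatty acids for heat. Noradrenaline acting on the beta 3 adrenergic receptor raises cyclic AMP in both, which activates lipases at the droplet surface. Kidneys lie in a fat pad and carry fat in the renal sinus, and several of these genes are also read in other cells, Fabp4 in capillary endothelium and macrophages and Lpl in macrophages and muscle.

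The level of a probe is given as log2 of its signal minus the 75th percentile of its array, so that 0 is the level of a fairly bright probe and each unit is a doubling. Being well above background means that the scanner software marked 50% or more of a probe's spots as such. Differences are Bailing Capsule minus diabetic, tested with limma and adjusted over all 18206 features, and genes below 0.05 after adjustment are called. Levels of different probes are not set against each other. Where the levels of a list are summed, the brightest probes make up most of the sum, so it does not stand for every gene of the list. The arrays correlated at 0.966 to 0.992, and 64.55% to 73.46% of probes were well above background, with the highest share on Bailing Capsule array 2. The 3 Bailing Capsule arrays and diabetic array 1 were read in 1 scan and diabetic arrays 2 and 3 in another, so group and scan are partly confounded.

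The promoters of 6 of the 10 genes were in the RefSeq table of build GRCr8. Those of Cidea, Cidec and Adipoq are shown, the first as the gene with the largest difference, the second as its closest relative among the markers and the third as the fat cell hormone. Each runs 5′ to 3′ from 250 bases before the annotated start to 50 bases from it. Capitals mark the letters CCAAT or their reverse complement ATTGG, the core of the CCAAT box bound by NF-Y.
Cidea promoter, chr18:63164567-63164866, plus strand: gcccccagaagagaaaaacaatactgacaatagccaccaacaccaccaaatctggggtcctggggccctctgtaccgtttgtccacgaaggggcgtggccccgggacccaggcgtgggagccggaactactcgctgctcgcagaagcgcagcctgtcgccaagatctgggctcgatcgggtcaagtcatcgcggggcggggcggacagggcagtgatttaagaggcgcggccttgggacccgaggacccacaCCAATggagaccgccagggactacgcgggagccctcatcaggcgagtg
Cidec promoter, chr4:148137066-148137365, minus strand: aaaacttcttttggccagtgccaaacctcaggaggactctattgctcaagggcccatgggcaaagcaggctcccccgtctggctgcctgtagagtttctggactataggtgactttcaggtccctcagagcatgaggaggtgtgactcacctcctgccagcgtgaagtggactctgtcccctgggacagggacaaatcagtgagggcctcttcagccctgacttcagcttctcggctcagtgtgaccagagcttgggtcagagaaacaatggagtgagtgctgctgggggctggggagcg
Adipoq promoter, chr11:91240120-91240419, minus strand: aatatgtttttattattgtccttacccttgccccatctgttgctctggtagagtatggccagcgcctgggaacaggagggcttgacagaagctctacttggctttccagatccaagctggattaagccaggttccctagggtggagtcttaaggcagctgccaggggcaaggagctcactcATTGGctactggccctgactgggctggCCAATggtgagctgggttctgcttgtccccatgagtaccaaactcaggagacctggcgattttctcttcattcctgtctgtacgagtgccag
Both strands were searched for CCAAT, for AGGTCA, the half-site of nuclear receptors, for the TATA box core TATAAA and for TGACGTCA, the cyclic AMP response element. CCAAT lay once in the Cidea window, 3 bases into the transcript, and at positions -69 and -42 in the Adipoq window. No searched motif lay in the Cidec window. CCAAT is present in 37.7% of all 27370 rat promoters of this length, AGGTCA in 15.7%, TATAAA in 14.3% and TGACGTCA in 1.91%. A match is a string of letters and not a shown binding site.

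No marker gene passed the adjusted threshold. Over all features limma called 0.297%, 0.17% lower and 0.126% higher in Bailing Capsule kidneys. Of the 7 tested genes 5 had negative differences and 2 positive ones, with a median of -0.61 against -0.0873 over all features, of which 61.8% were negative. Relative to each gene's diabetic mean, the marker median was 0.14, -1.48 and -0.42 on the Bailing Capsule arrays. On the diabetic arrays it was 0.21, 0.01 and -0.17, so Bailing Capsule array 1 lay within the diabetic range. The pooled SD of this median between arrays was 0.59. At an unadjusted p under 0.05, Cidea and Adrb3 were lower and Lpl was higher, against 4.44% lower and 3.16% higher of all features, 7.61% in all. The same 3 genes had groups that did not overlap, where 6.98% of features lay wholly lower and 4.75% wholly higher. In RNA from a tissue of many cell types, fewer cells of a type and less RNA per cell cannot be told apart.

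**Figure D1:**
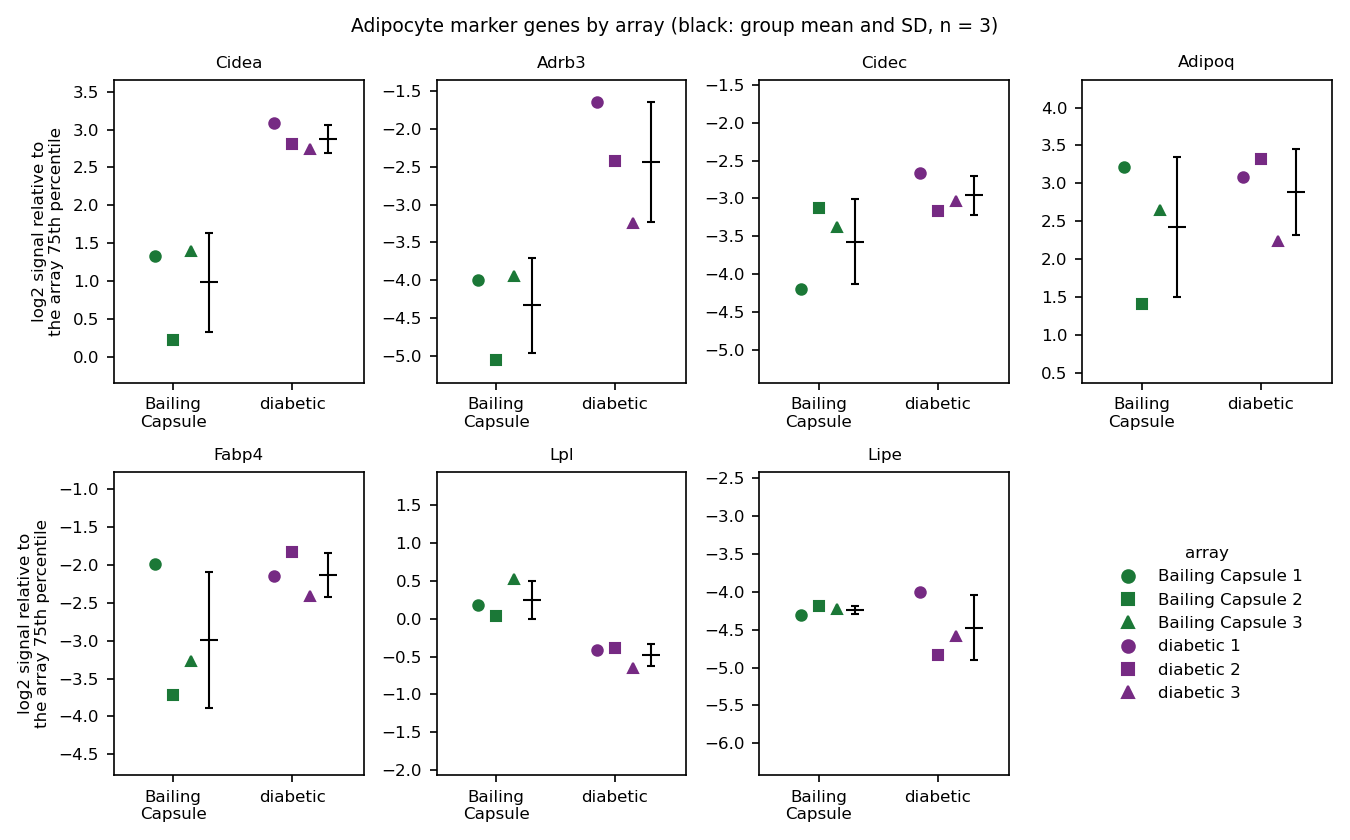
Level of each tested marker gene on every array, as log2 signal relative to the 75th percentile of the array, with Bailing Capsule arrays on the left and diabetic arrays on the right and the group mean and SD (n = 3) in black. Each panel spans the same log2 range. Cidea and Adrb3 lie lower on all 3 Bailing Capsule arrays, Lpl lies higher on all 3, and the groups overlap for Cidec, Adipoq, Fabp4 and Lipe.

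Cidea encodes a protein of lipid droplets and the endoplasmic reticulum that drives exchange of lipid between droplets, and in mice it is abundant in brown fat. Its brighter probe read 1.33, 0.22 and 1.39 on the Bailing Capsule arrays, against 3.09, 2.81 and 2.74 on the diabetic arrays. All 3 Bailing Capsule kidneys lay below all 3 diabetic kidneys, by more than 1 log2 unit between the nearest pair, and the diabetic values were close together. The means were 0.98 ± 0.66 in Bailing Capsule and 2.88 ± 0.18 in diabetic kidneys (SD, n = 3 each). The log2 difference was -1.90 (SE 0.34, 95% interval -2.65 to -1.14), a ratio of 0.269. limma's p of 0.000218 ranked 63 among 18206 features, and the adjusted p was 0.0606.

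The dimmer probe of Cidea, matched to the same accession, also separated the groups, but with another order among the Bailing Capsule arrays, array 1 being the lowest. It read -2.83, -2.63 and -2.28 on the Bailing Capsule arrays, against -0.76, -0.79 and -0.93 on the diabetic arrays. When each of 19819 probes was tested on its own in limma, this probe fell by 1.75 on the log2 scale (SE 0.25, adjusted p = 0.0196), and the brighter probe had an adjusted p of 0.06. The mean of both probes had -1.82 (limma, adjusted p = 0.0265), and a variance model with an intensity trend gave the brighter probe an adjusted p of 0.0146. Without Bailing Capsule replicate 1 the value was -2.07 (limma, adjusted p = 0.0163), and over all alternatives it ran from -2.11 to -1.52 with adjusted p-values of 0.0146 to 0.278. Cidea thus sat near the threshold and passed it under some settings only. With scan as a block the difference was -2.11 (limma, adjusted p = 0.147), which rests on diabetic array 1 alone.

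**Figure D2:**
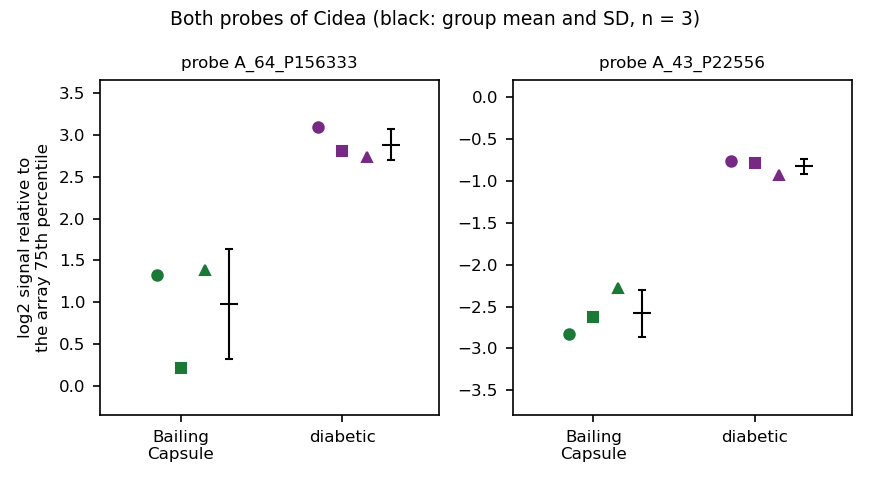
The 2 probes of Cidea on every array, as log2 signal relative to the 75th percentile of the array, Bailing Capsule on the left and diabetic on the right, with the group mean and SD (n = 3) in black. In both panels all 3 Bailing Capsule arrays lie below all 3 diabetic arrays, with mean differences of -1.90 on the left and -1.75 on the right.

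Cidec, the relative of Cidea that in mice helps form the single large droplet of white fat cells, did not separate the groups. It read -4.20, -3.13 and -3.38 on the Bailing Capsule arrays, against -2.67, -3.17 and -3.03 on the diabetic arrays. Bailing Capsule array 2 lay inside the diabetic range, and array 1 was the lowest of the 6. The difference was -0.61 (SE 0.32, 95% interval -1.32 to 0.10), with an adjusted p of 0.744 in limma. It ran from -0.83 to -0.30 as single arrays were left out and was -0.24 at its smallest among all alternatives.

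Adrb3, the beta 3 adrenergic receptor that starts lipolysis in response to noradrenaline, read -4.00, -5.06 and -3.94 in Bailing Capsule rats, against -1.65, -2.43 and -3.24 in diabetic kidneys. The groups did not overlap, but the diabetic values were spread widely and diabetic array 3 was nearest to the Bailing Capsule arrays. The means were -4.33 ± 0.63 in Bailing Capsule and -2.44 ± 0.79 in diabetic kidneys (SD, n = 3 each). The difference was -1.89 (SE 0.43, 95% interval -2.85 to -0.92), a ratio of 0.27, with a limma p of 0.00142, rank 165, and an adjusted p of 0.156. The processed signal before scaling was only 14.0, 11.3 and 15.5 on the Bailing Capsule arrays, against 87.0, 41.3 and 40.8 on the diabetic arrays. With normexp background correction, which raises dim signals by an offset, the difference was -0.55 (limma, adjusted p = 0.59). With scan as a block it was -2.68 (limma, adjusted p = 0.0794), since diabetic array 1 lay 1.18 above the mean of the other diabetic arrays.

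Ucp1, the uncoupling protein that makes heat in brown fat mitochondria and defines that tissue, was not well above background on any array. Its probe was printed on 10 spots. On the Bailing Capsule arrays 1 spot of 10, 1 of 9 and 1 of 10 were well above background, against 1, 3 and 0 of 10 on the diabetic arrays. Its levels were -5.47, -6.17 and -6.02 in Bailing Capsule and -6.24, -5.13 and -5.64 in diabetic kidneys, and no fold is given. Of 15 other matched genes of brown fat and thermogenesis, 11 were bright enough to test, and 9 of these were well above background on all 6 arrays. Among the 4 that were too dim, Dio2, which activates thyroid hormone there, and Zic1, a transcription factor of the brown lineage, were well above background on 0 of 3 Bailing Capsule arrays and 0 of 3 diabetic arrays. The same held for Tmem26, while Tbx1 was well above background on 0 of 3 Bailing Capsule arrays and 2 of 3 diabetic arrays. Ucp1 itself, the defining gene of brown fat, gave no signal well above background in these kidneys.

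Adipoq encodes adiponectin, a hormone secreted by fat cells. It read 3.22, 1.41 and 2.65 in Bailing Capsule rats, against 3.09, 3.32 and 2.24 in diabetic kidneys. Bailing Capsule array 1 was at the level of the 2 brightest diabetic arrays, while Bailing Capsule array 2 was the lowest of all. The difference was -0.46 (SE 0.46, 95% interval -1.47 to 0.56, limma adjusted p = 0.956), and without Bailing Capsule replicate 2 it was 0.05.

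Fabp4, the fatty acid chaperone of fat cells, read -1.99, -3.72 and -3.27 in Bailing Capsule rats, against -2.14, -1.83 and -2.41 in diabetic kidneys. Again Bailing Capsule array 1 lay among the diabetic arrays and array 2 lowest. The difference was -0.87 (SE 0.41, 95% interval -1.78 to 0.05, limma adjusted p = 0.693). It was -1.37 without Bailing Capsule replicate 1, -0.50 without Bailing Capsule replicate 2 and -0.44 with normexp.

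Among the Bailing Capsule arrays, 2 of the 7 tested markers, Adipoq and Fabp4, were highest on array 1 and lowest on array 2. Another 2, Cidec and Lipe, ran the other way, lowest on array 1 and highest on array 2. Of 14 other adipocyte genes with a value on every array, 8 ran like Adipoq and 4 like Cidec. A pair of fat cell hormones among the 8 were picked out after their values were seen. Retn encodes resistin and Cfd encodes adipsin, the complement factor secreted by fat cells. Retn read 0.35, -2.26 and -0.68 in Bailing Capsule rats, against 0.16, -0.27 and -0.34 in diabetic kidneys. Cfd read 0.52, -1.79 and -1.36 in Bailing Capsule rats, against 0.66, 0.36 and -0.26 in diabetic kidneys. Relative to the diabetic mean, Bailing Capsule array 1 stood at 0.33 for Adipoq, 0.14 for Fabp4, 0.51 for Retn and 0.26 for Cfd. Bailing Capsule array 2 stood at -1.48 for Adipoq, -1.59 for Fabp4, -2.10 for Retn and -2.05 for Cfd. On Bailing Capsule array 1, where those 4 genes were above the diabetic mean, Cidea stood at -1.54 and Adrb3 at -1.55. Cidea and Adrb3 were not alone in this. Cidec (-4.20 against a diabetic mean of -2.96) and Rbp4 (1.76 against 3.25) also lay lower on that array. The median of the 15 other adipocyte genes tested stood at 0.2 there, relative to the diabetic mean. On Bailing Capsule array 2 Cidea and Adrb3 stood at -2.66 and -2.62. Cidea, Adrb3 and those 4 genes were thus all lowest there, Cidea by its brighter probe only. This order of the Bailing Capsule arrays was not particular to fat genes, since 7 of 9 kidney tubule and podocyte markers were also highest on array 1 and lowest on array 2. The kidney markers summed to 554, 285 and 379 on the Bailing Capsule arrays, in multiples of the array 75th percentile, against 344, 566 and 416 on the diabetic arrays. How much fat each kidney carried is not stated, and its part in these differences was not tested.

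**Figure D3:**
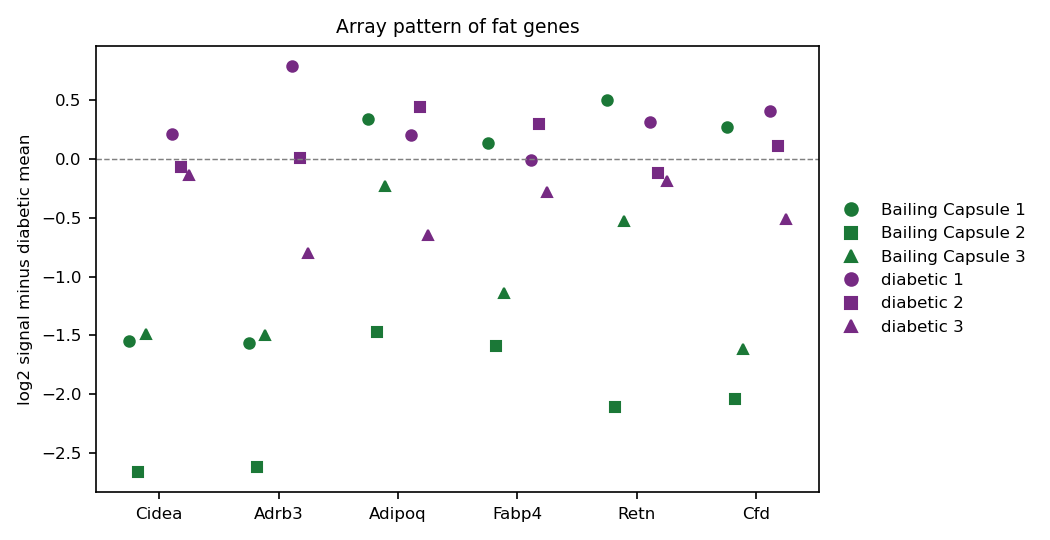
Level of 6 fat genes on each array after subtracting the diabetic mean of that gene, on the log2 scale, with Bailing Capsule arrays to the left of diabetic arrays for each gene. Bailing Capsule array 1 is at -1.54 for Cidea and -1.55 for Adrb3 but between 0.14 and 0.51 for Adipoq, Fabp4, Retn and Cfd, and Bailing Capsule array 2 is the lowest for all 6, with Cidea drawn from its brighter probe. Cidec and Lipe, which are not drawn, were highest on array 2 among the Bailing Capsule arrays. On Bailing Capsule array 1 Cidec read -4.20 against a diabetic mean of -2.96, and Lipe -4.30 against -4.47.

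Lpl, the lipase that releases fatty acids from circulating triglyceride, had the opposite sign. It read 0.18, 0.04 and 0.52 in Bailing Capsule rats, against -0.41, -0.39 and -0.65 in diabetic kidneys. Every Bailing Capsule array lay above every diabetic array, and the spot-to-spot SD on an array was 0.05 to 0.08 over 9 or 10 spots. The means were 0.25 ± 0.25 in Bailing Capsule and -0.48 ± 0.14 in diabetic kidneys (SD, n = 3 each), a difference of 0.73 (SE 0.25, 95% interval 0.17 to 1.29) or 1.66-fold. limma gave a p of 0.0156 and an adjusted p of 0.416. The value lay between 0.59 and 0.83 under every alternative run, and blocking on scan gave 0.66.

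Lipe encodes hormone-sensitive lipase, which cuts diacylglycerol at the droplet of fat cells. Its brighter probe read -4.30, -4.19 and -4.23 in Bailing Capsule rats, against -4.00, -4.84 and -4.58 in diabetic kidneys. The Bailing Capsule values lay within the diabetic range, and the difference was 0.23 (SE 0.28, 95% interval -0.38 to 0.85, limma adjusted p = 0.967). Blocking on scan gave -0.24. A further probe was well above background on diabetic array 1 only and was not tested.

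**Figure D4:**
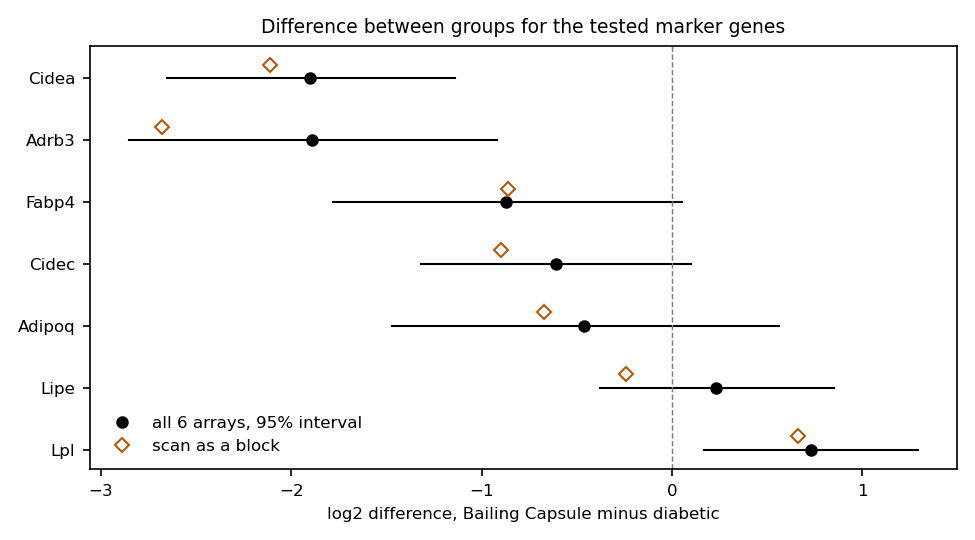
Log2 difference, Bailing Capsule minus diabetic, of the 7 tested genes, with the 95% interval of the limma fit over all 6 arrays (filled circles) and the estimate with scan as a block (open diamonds). The intervals of Cidea, Adrb3 and Lpl leave out 0, before any adjustment for the number of features, and the blocked estimate of Lipe lies on the other side of 0.

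The features most like Adipoq over the 6 arrays, among 10401 named features with a value on every array, were Idi1 (Pearson r = 0.991), Trappc6b (0.989), Xkr8 (0.987), Proca1 (0.986) and Gnai3 (0.985). Idi1, an isomerase of isoprenoid synthesis, read 1.58, 0.31 and 1.22 in Bailing Capsule kidneys and 1.56, 1.61 and 1.05 in diabetic kidneys. The features most like Cidea were Mrps31 (0.997), Htatip2 (0.99), Slc6a6 (0.989), Tgif1 (0.987) and Tp73 (0.985). Tp73, which encodes a relative of p53, differed by -1.42 (limma, adjusted p = 0.117) and Tgif1, a transcriptional repressor, by -1.11 (limma, adjusted p = 0.17). With 6 arrays that share their scaling, unrelated features can reach such values of r, and they are a description only.

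Other genes of fat cells and of fat handling were taken from lists, with up to 3 members by p named from each. These lists, and the markers of other cells further on, were also chosen with earlier results known, so their counts are a description only. The list counts stand against all features, of which 61.8% were negative. At an unadjusted p under 0.05 in limma, 4.44% of all features were lower and 3.16% higher. Groups did not overlap for 6.98% of features on the lower side and 4.75% on the higher side. Of 20 other adipocyte genes 15 were tested, with 9 negative and 6 positive differences and a median of -0.51. At an unadjusted p under 0.05, 4 were lower and 1 was higher. Rbp4, the plasma carrier of retinol made by liver and fat, was the only one called. It read 1.76, 1.22 and 0.52 in Bailing Capsule rats, against 2.98, 3.69 and 3.09 in diabetic kidneys, and fell by 2.09 on the log2 scale (SE 0.35, limma adjusted p = 0.0471). The scan block gave it -1.82 (limma, adjusted p = 0.295), and the call also ended without Bailing Capsule replicate 2 or 3 or diabetic replicate 2 or 3 (limma, adjusted p = 0.137 to 0.236). Acsl1, which activates long-chain fatty acids, and Cd36, which takes them up, had -1.11 and -1.10 (limma, adjusted p = 0.272 and 0.229), and both are also abundant in tissues that burn fat. Slc2a4, the insulin-responsive glucose transporter of fat and muscle, was the higher one, at 0.73 (limma, adjusted p = 0.406), with no overlap between groups. Lep, the hormone of white fat, and Cebpa, a regulator of fat cell formation, were well above background on 0 of 3 arrays in either group. Pparg, the nuclear receptor of fat cell formation, differed by 0.05. Slc2a4, Lep, Cebpa and Pparg are named here after their values were seen.

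Of 15 matched genes of brown fat and thermogenesis 11 were tested, 8 with negative differences, a median of -0.33 and none called by limma, with 1 lower at an unadjusted p under 0.05. Cox8b, a respiratory chain subunit of brown fat and muscle, read -4.19, -3.97 and -3.98 in Bailing Capsule rats, against -2.81, -2.36 and -3.55 in diabetic kidneys. Its difference was -1.14 (limma, adjusted p = 0.276), with no overlap between groups, and -0.36 with normexp. Cpt1b, which carries fatty acids into mitochondria, had -0.73 over the 5 arrays with a value, since its spot on diabetic array 1 was left out as an outlier. Gk, the glycerol kinase gene, had -0.43.

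All 9 tested genes of the lipid droplet and lipolysis had negative differences, against 61.8% of all features. Their median was -0.49, against -0.0873 over all features. Plin2, which coats droplets in most cell types, was the only one called. It read 1.81, 2.35 and 1.73 in Bailing Capsule rats, against 3.72, 3.62 and 3.58 in diabetic kidneys, and fell by 1.68 on the log2 scale (SE 0.26, limma adjusted p = 0.0328). The order of the Bailing Capsule arrays differed from that of Cidea, with array 2 the highest for Plin2 and the lowest for the brighter Cidea probe, though not for its dimmer probe. Blocked on scan, Plin2 had -1.76 (limma, adjusted p = 0.137). Its call also ended without Bailing Capsule replicate 3 or diabetic replicate 2 or 3 (limma, adjusted p = 0.152 to 0.178). Fitm1, which helps droplets form, had -0.93 and Mgll, the monoacylglycerol lipase, -0.74. Plin5, a droplet coat protein of tissues that burn fat, and Abhd5, an activator of adipose triglyceride lipase, were too dim to test.

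Of 13 matched genes that handle lipoprotein lipase 7 were tested, 4 with positive and 3 with negative differences. Angptl4, a secreted inhibitor of the enzyme that Lpl encodes, was called. It read 2.98, 2.71 and 2.50 in Bailing Capsule rats, against 4.92, 4.30 and 5.11 in diabetic kidneys, and fell by 2.04 on the log2 scale (SE 0.29, limma adjusted p = 0.0187). Under the scan block it had -2.19 (limma, adjusted p = 0.0816), and its call also ended without Bailing Capsule replicate 2 or 3 or diabetic replicate 3 (limma, adjusted p = 0.0859 to 0.122). Apoc2, the activator of the enzyme, and Apoc3, an inhibitor, had -1.47 and -0.92 (limma, adjusted p = 0.0893 and 0.29) with groups that did not overlap. Gpihbp1, which anchors the enzyme to capillaries, had 0.05 with an interval of -1.17 to 1.27. Lpl itself, which was not called, lay higher in Bailing Capsule kidneys, where Angptl4, Apoc2 and Apoc3 lay lower. A link between these genes was not tested.

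Of 16 adrenoceptor genes and genes of the cyclic AMP route 12 were tested and none was called by limma, with 1 lower at an unadjusted p under 0.05 and a median of -0.14, which was 0.18 when scan was a block. The lowest p-values were those of the alpha 1 receptors, with differences of -0.82 for Adra1d, -0.60 for Adra1b and -0.45 for Adra1a. Adrb1, the beta 1 receptor, had -0.19 (SE 0.28). Among other fatty acid binding protein genes 3 of 6 were tested. Fabp1, of liver and proximal tubule, had -0.89, Fabp5 0.59 and Fabp3, of heart and muscle, 0.03. None of these was called by limma, and 1 was lower at an unadjusted p under 0.05.

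**Figure D5:**
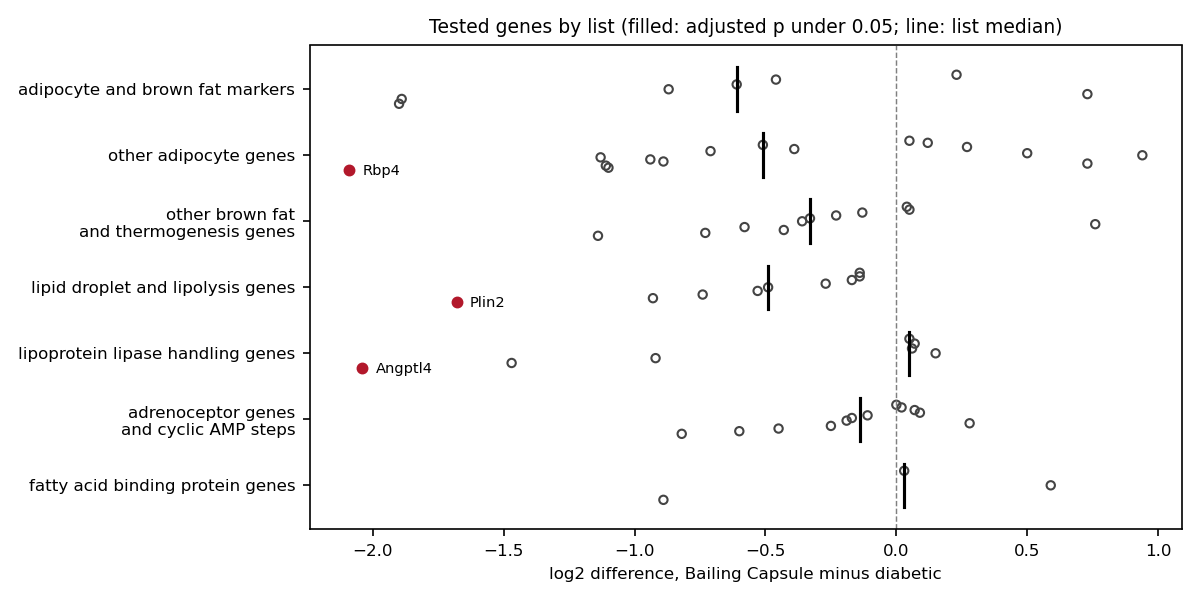
Log2 difference, Bailing Capsule minus diabetic, of every tested gene of the marker list and of 6 lists of related genes, with the list median as a vertical line and genes at an adjusted p under 0.05 filled. Only Rbp4, Plin2 and Angptl4 are filled, and the median of the marker list lies at -0.61.

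Markers of other cells were read on the same arrays, and none was called by limma. At an unadjusted p under 0.05, 4 liver markers were lower and 1 macrophage marker was higher, against 4.44% lower and 3.16% higher of all features. Capillary endothelial markers, 7 tested, had a median of -0.28, or 0.30 when scan was a block, and summed levels of 45.8 to 69.1 in Bailing Capsule and 52.8 to 73.9 in diabetic kidneys, in multiples of the array 75th percentile. Macrophage markers, 7 tested, had a median of 0.19, with sums of 44.5 to 81.5 in Bailing Capsule and 49.5 to 61.2 in diabetic kidneys. Of 10 liver markers 6 were tested and all 6 were negative, against 61.8% of all features, with a median of -1.16. Their sums, set almost wholly by the brightest gene, were 16.7 to 40.1 in Bailing Capsule and 21.7 to 51.3 in diabetic kidneys. Apoa1 was well above background on 0 of 3 arrays of either group, while Alb had -1.37 (limma, adjusted p = 0.307). Adrenal, skeletal muscle and mesothelial markers had medians of 0.01, -0.06 and -0.07 over 4, 4 and 7 tested genes. The 9 tested kidney markers were well above background on all 6 arrays, with a median of 0.29. The part of these cells in the differences of Cidea, Adrb3 and Lpl was not tested.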

How the data were processed

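Arrays were extracted with Agilent Feature Extraction 11.0.1.1, per the file headers, giving a background-subtracted intensity per spot that the authors deposited unscaled. Their deposited log2 table looks quantile normalized, with medians of 5.05 and 21.3% to 28.9% of values at a floor, and how it was made is not given in the sources used here; it served as an alternative. Control spots and spots marked as outliers, 597 to 1091 on each array, were dropped, and the remaining spots of a probe were averaged on the log2 scale. The 75th percentile of these probe averages was then subtracted on each array. A probe was kept where it was well above background on all 3 arrays of at least 1 group. The brightest kept probe stood for a gene, and unnamed probes stood for themselves. RefSeq accessions named 18005 of 30367 probes (GRCr8). The array design names the older build rn4, so only promoter windows carry coordinates.

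Groups were compared in limma 3.58.1 (R 4.3.3) with Benjamini-Hochberg adjustment over 18206 features. On simulated arrays 61% of changes of 2 log2 units and 1% of changes of 1 unit were recovered. The number of arrays limits the precision. The members and lists were chosen with earlier results of these data known. Named genes are the 10 members, up to 3 members by p of each related list, called members and the 5 features most like Adipoq and Cidea. Genes named for their role or array pattern outside this rule are Retn, Cfd, Slc2a4, Lep, Cebpa, Pparg, Dio2, Zic1, Plin5, Abhd5, Gpihbp1, Adrb1, Apoa1, Alb and Elovl3. Tbx1 and Tmem26 are named to complete the brown fat genes too dim to test. Alternatives were other scalings, normexp on the median spot and background intensity with an offset of 50, the deposited table, other filters, other probe rules, a trended variance, scan or replicate number as a block and leaving out each array.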

Additional observations from a re-analysis of the deposited data

How the results depend on the processing

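The median difference of the tested markers stayed negative under the 16 alternatives that gave it, from -0.86 with scan as a block to -0.39 with normexp. Cidea, Cidec, Adrb3, Fabp4 and Lpl kept their sign in all 16. Lipe changed sign with scan as a block, at -0.24, and Adipoq, which ran from -0.85 to 0.05 as single arrays were left out, did so without Bailing Capsule replicate 2. No alternative called a member other than Cidea, which was called with the mean of its probes, with a trended variance and without Bailing Capsule replicate 1. Of all features 54 were called, 23 higher and 31 lower, against 25 and 20 in the deposited table and 28 and 11 with scan as a block. The number was 14 with normexp, 6 with no filter, where 27439 features were tested, 35 with a filter on all 6 arrays, and 17 to 187 as single arrays were left out, the highest without diabetic replicate 1 and the lowest without diabetic replicate 2 or 3; apart from the number of features and arrays, the cause was not tested. A replicate block by the labels' numbers gave 6. Same-numbered samples correlated at -0.177, -0.139 and 0.0188 after removing group means, so the numbers are not taken as pairs, and the block changed no call of a member but ended those of Rbp4, Plin2 and Angptl4. Of 16 alternatives, also run on other named genes after seeing the data, 11 ended the call of Rbp4 and 9 each those of Plin2 and Angptl4, among them quantile normalization (limma, adjusted p = 0.0609 for Rbp4 and Angptl4 and 0.0784 for Plin2), normexp, the deposited table and no filter; the sign never changed. Apoc2 was called under 4 alternatives, and Cfd and Tp73 without Bailing Capsule replicate 1. Signs turned for Adrb1 with normexp (0.03) and scan as a block (0.21), and for Pparg (-0.08) and Gpihbp1 (-0.19) with scan as a block; with single arrays left out Pparg ran from -0.27 to 0.25, Gpihbp1 from -0.71 to 0.43 and Fabp3 from -0.22 to 0.28. The medians of 3 lists turned sign with scan as a block, to 0.30 for capillary endothelial markers, 0.18 for adrenoceptor and cyclic AMP genes and -0.19 for genes that handle lipoprotein lipase. There the median of all features moved to 0.0899, and member differences stand against that level. Dim probes (Adrb3, Cidec, Fabp4, Lipe) are limited by their signal over background. The same holds for other dim genes named here, whose differences were smaller in size with normexp. There they were -0.36 for Cox8b, -0.68 for Tp73, -0.48 for Fitm1, -0.39 for Alb and -0.18 for Fabp1.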

Other observations

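Elovl3, an elongase of very long fatty acids that is abundant in brown fat and skin, set 1 diabetic array apart by a dim value. It read -2.88, -3.35 and -3.68 in Bailing Capsule rats, against -5.49, -3.33 and -3.38 in diabetic kidneys, with the low value on diabetic array 1. Its difference was 0.76 (limma, adjusted p = 0.878), and 0.25 with normexp. With scan as a block it was 2.18 (limma, adjusted p = 0.0704), which rests on that array, the only diabetic array of its scan.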
